A study of Mus musculus with 6 samples.

Results

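The C1q-like and cerebellin genes C1ql2, C1ql3, Cbln1, Cbln2, Cbln3 and Cbln4 were followed in mouse primary visual cortex (V1). They were taken by gene symbol from a table of 52636 Ensembl genes, in which all 6 were found. The list was drawn up with results of these libraries known, among them a lower C1ql3 level opposite the closed eye, so differences of these genes between hemispheres are given as a description without a test. The animals were 3 wild-type C57BL/6J mice whose right eyelids were sutured for 3 days before dissection at postnatal day 28. V1 contralateral to the sutured eye (left) and V1 ipsilateral to it (right) were taken from each mouse, giving 3 contralateral and 3 ipsilateral libraries of total RNA. No animal without eye closure is among these groups, so both hemispheres come from deprived mice, and ipsilateral V1 is the comparison tissue, not an untreated one.

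C1q-like proteins and cerebellins are small secreted proteins that end in a globular C1q domain and assemble through it. Released from a presynaptic neuron, they sit in the synaptic cleft and connect receptors of the facing membranes. Cerebellins connect presynaptic neurexins to postsynaptic delta glutamate receptors, best known at the synapses of cerebellar granule cells on Purkinje cells. C1q-like proteins bind the adhesion G protein-coupled receptor BAI3 (gene Adgrb3), and C1ql2 and C1ql3 also bind kainate receptors and neurexin-3 at hippocampal mossy fibres.

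Coding sequences of the family show how far its members have diverged, which bears on whether short reads can be assigned to 1 of them. Cbln2 was left out of this comparison. The lines below give, from GENCODE M21 transcripts on GRCm38, the 90 coding bases of the C-terminal part with the most positions identical in the 5 genes, each inside a single exon. Capitals mark the 32 positions (35.6%) that are the same in all 5.
C1ql2: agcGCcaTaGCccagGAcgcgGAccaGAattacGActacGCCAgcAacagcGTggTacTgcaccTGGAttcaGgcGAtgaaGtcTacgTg
C1ql3: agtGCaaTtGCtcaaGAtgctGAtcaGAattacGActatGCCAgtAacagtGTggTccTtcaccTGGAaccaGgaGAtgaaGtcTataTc
Cbln1: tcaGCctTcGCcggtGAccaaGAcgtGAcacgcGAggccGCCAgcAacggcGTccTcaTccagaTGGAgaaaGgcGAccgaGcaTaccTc
Cbln3: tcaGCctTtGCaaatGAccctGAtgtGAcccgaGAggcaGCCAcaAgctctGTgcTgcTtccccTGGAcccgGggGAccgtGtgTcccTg
Cbln4: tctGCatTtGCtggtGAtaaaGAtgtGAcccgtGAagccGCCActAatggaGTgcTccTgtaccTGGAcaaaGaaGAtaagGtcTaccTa
These stretches lie at chr1:120342404-120342493 (plus strand) for C1ql2, chr2:13004346-13004435 (minus) for C1ql3, chr8:87470329-87470418 (minus) for Cbln1, chr14:55883055-55883144 (minus) for Cbln3 and chr2:172037445-172037534 (minus) for Cbln4. Over the aligned coding bases, C1ql2 and C1ql3 were 72.2% identical, Cbln1 and Cbln4 67.5%, and pairs of a C1q-like gene with a cerebellin 45.8% to 52.9%. The longest run of identical bases shared by any pair of these transcripts was 38, between C1ql2 and C1ql3, followed by 21 between Cbln1 and Cbln3.

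The genes differed widely in level. On the RPKM scale, which divides reads by exonic length and library size, Cbln2 was the most abundant, at 14.8 ± 1.55 in contralateral and 24.0 ± 3.27 in ipsilateral V1 (SD, n = 3 each here and for all mean ± SD values). C1ql3 came next, at 9.25 ± 0.908 RPKM in contralateral and 13.4 ± 1.98 RPKM in ipsilateral V1. Cbln4 had 2.41 ± 0.576 RPKM in contralateral and 4.70 ± 0.717 RPKM in ipsilateral V1. In each hemisphere, the libraries of Cbln2 lay above all of C1ql3, and those of C1ql3 above all of Cbln4.

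Cbln1 averaged 0.604 ± 0.183 RPKM in contralateral and 0.791 ± 0.278 RPKM in ipsilateral V1. C1ql2 averaged 0.234 ± 0.189 RPKM in contralateral and 0.186 ± 0.09996 RPKM in ipsilateral V1, and Cbln3 averaged 0.0703 ± 0.00824 RPKM in contralateral and 0.0784 ± 0.0240 RPKM in ipsilateral V1. In contralateral V1 the libraries of Cbln1 and C1ql2, and those of C1ql2 and Cbln3, overlapped, so these neighbours in the order did not differ beyond their spread there. In ipsilateral V1 they did not overlap. The closest values of C1ql2 and Cbln3 there were 0.113 and 0.106 RPKM, from 7 and 10 reads, a gap that counting error can span. C1ql1, a relative outside the list that serves as the climbing fibre ligand of BAI3 in the cerebellum, averaged 2.96 ± 0.844 RPKM in contralateral and 2.97 ± 1.45 RPKM in ipsilateral V1. It overlapped Cbln4 in both hemispheres and lay above Cbln1 in every library.

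**Figure D1:**
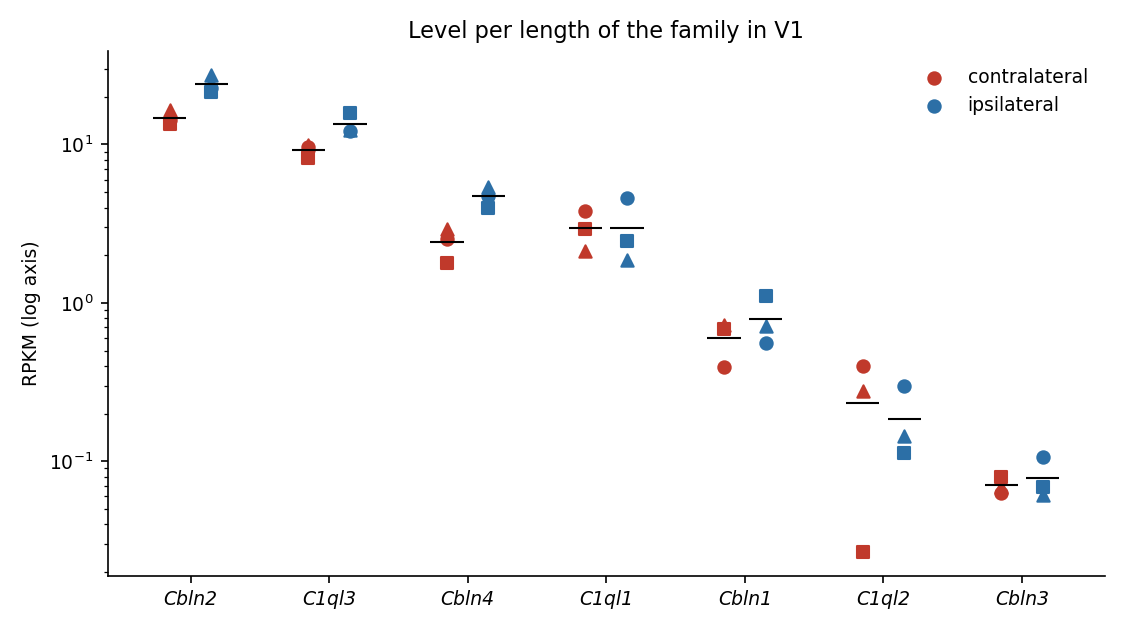
Level of 7 family genes in RPKM on a log axis, with 1 point per library (circle mouse 1, square mouse 2, triangle mouse 3), contralateral V1 in red and ipsilateral V1 in blue, and a bar at each mean. Cbln2 and C1ql3 lie above the other genes in every library, and Cbln3 lies lowest by mean; C1ql4, with no read, is not drawn.

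Cbln2 (ENSMUSG00000024647, chromosome 18, 86711110 to 86718283, plus strand) encodes a cerebellin of forebrain neurons that binds neurexins and delta receptors. It had 41.3, 39.1 and 47.7 CPM (reads scaled to library size) in contralateral V1 of mice 1 to 3, against 66.3, 61.8 and 79.95 CPM in ipsilateral V1. The groups did not overlap, and mouse 3 had the highest value in both hemispheres. The log2 fold change was -0.70 (SE 0.14), which is 1.62-fold lower in contralateral V1. Contralateral V1 held 62.3%, 63.4% and 59.7% of the ipsilateral level within mice 1, 2 and 3. On the log2 scale these ratios were -0.68, -0.66 and -0.74, with counting errors of 0.056 to 0.064, and their 95% counting intervals overlapped.

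Cbln4 (ENSMUSG00000067578, chromosome 2, 172036233 to 172043466, minus strand) encodes a cerebellin that binds neurexins and has been reported to bind the netrin receptor DCC and neogenin. In mouse cortex it is made by somatostatin interneurons, where it is needed for their synapses on pyramidal cell dendrites. Contralateral V1 had 7.32, 5.19 and 8.49 CPM in mice 1 to 3, and ipsilateral V1 13.7, 11.5 and 15.7 CPM. The groups did not overlap, and mouse 2 was lowest and mouse 3 highest on both sides. The log2 fold change was -0.96 (SE 0.21), 1.94-fold lower in contralateral V1, the furthest below 0 among the 5 listed genes that could be fitted. Within mice 1, 2 and 3 the contralateral level was 53.3%, 45.2% and 54.2% of the ipsilateral one, from 147, 97 and 184 reads against 275, 355 and 382.

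Because bulk tissue was sequenced, fewer cells of a type and less RNA per cell cannot be told apart. Of 7 somatostatin interneuron markers, 6 had a negative log2 fold change without the mouse as a block (median -0.29), and 4 with that term, which compares hemispheres within animals. Without it 0 passed in edgeR's quasi-likelihood test (Benjamini-Hochberg adjusted p under 0.05), with 2 at an unadjusted p under 0.05 and 0 passing in DESeq2. Those 2 went opposite ways, Nos1 being higher in contralateral V1 and the NMDA receptor subunit gene Grin3a lower in 3 of 3 mice (log2 fold change -0.29, SE 0.12, adjusted p = 0.776 without and 0.191 with the block, edgeR). The 7 markers' summed level was 172 to 182 CPM in contralateral and 147 to 204 CPM in ipsilateral libraries, and none of the 7 was at 0. With the block 1 of the 7 passed and was higher in contralateral V1: Nos1, the neuronal nitric oxide synthase (log2 fold change 0.45, SE 0.10, adjusted p = 0.0456, edgeR). DESeq2 with the block called 0 of the 7. Over all genes, 0.127% passed in edgeR without the block and 0.894% with it. Of the 7 markers, 3 had an unadjusted p under 0.05 in edgeR with the block, Nos1 with a positive and Grin3a and Sst with a negative log2 fold change. Sst itself, the somatostatin peptide, had 54.0%, 60.4% and 130% of the ipsilateral level in mice 1, 2 and 3. Its log2 fold change was -0.51 (SE 0.26, adjusted p = 0.820) without the block and -0.43 (SE 0.17, adjusted p = 0.286) with it, both in edgeR.

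The bases ahead of the Cbln4 start are shown because Cbln4 lay furthest below 0. Those of C1ql2 are shown because its log2 fold change without the block was above 0. That value, 0.41 (SE 0.68), came from few reads and changed sign between settings, so C1ql2 cannot stand for an unchanged gene. Both stretches are the 250 bases before the RefSeq start (GRCm38.p6), at chr2:172043467-172043716 (minus strand) and chr1:120340332-120340581 (plus strand). Capitals mark matches to motifs of activity-regulated factors.
Cbln4: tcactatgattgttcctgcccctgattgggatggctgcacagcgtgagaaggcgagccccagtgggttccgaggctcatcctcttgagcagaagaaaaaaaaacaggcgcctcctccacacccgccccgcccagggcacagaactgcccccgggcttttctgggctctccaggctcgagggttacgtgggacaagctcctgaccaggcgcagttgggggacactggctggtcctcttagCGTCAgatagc
C1ql2: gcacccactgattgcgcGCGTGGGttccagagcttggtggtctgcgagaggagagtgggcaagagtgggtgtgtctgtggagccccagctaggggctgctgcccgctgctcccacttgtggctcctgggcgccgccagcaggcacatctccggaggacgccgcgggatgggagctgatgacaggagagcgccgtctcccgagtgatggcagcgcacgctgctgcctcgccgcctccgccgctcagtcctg
These motifs were searched on both strands: TGACG (the core of the CREB site), TGANTCA (AP-1), CACGTG (an E-box) and GCGTGGG (part of the EGR site), none of which contains another. Among 32851 RefSeq promoter windows of this length, 17.8%, 6.75%, 6.02% and 4.30% held a match, in that order. Cbln4 held 1 match to TGACG at -11 to -7 from the start, on the strand opposite to the one printed. C1ql2 held 1 match to GCGTGGG at -233 to -227, on the printed strand. The windows of C1ql3 and Cbln3 held no match, and Cbln1 and Cbln2 were not searched here. A match of letters is not a binding site, and these windows are short.

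C1ql3 (ENSMUSG00000049630, chromosome 2, 13003457 to 13011806, minus strand) encodes a BAI3 ligand made by projection neurons of the forebrain. Contralateral V1 had 24.4, 20.8 and 25.1 CPM in mice 1 to 3, against 31.0, 39.9 and 31.4 CPM in ipsilateral V1. The groups did not overlap, and mouse 2 had both the lowest contralateral and the highest ipsilateral value. The log2 fold change was -0.54 (SE 0.15), 1.45-fold lower in contralateral V1. Contralateral V1 held 78.9%, 52.3% and 80.1% of the ipsilateral level in mice 1, 2 and 3. The log2 ratio of mouse 2, -0.94 (95% counting interval -1.10 to -0.77), lay outside the intervals of mouse 1 (-0.51 to -0.17) and mouse 3 (-0.48 to -0.16). Without both libraries of mouse 2 the log2 fold change was -0.33 (SE 0.16).

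The strand setting of the deposited counts is not given in the sources used here, and 2 predicted genes on the opposite strand overlap C1ql3. Gm37811 covers 1547 of its 2535 exonic bases and Gm37824 covers 80. Gm37811 itself had 6, 11 and 9 reads in contralateral and 15, 15 and 26 reads in ipsilateral libraries, far fewer than the 389 to 544 contralateral and 620 to 1230 ipsilateral reads of C1ql3. Gm37824 had 71 to 109 reads in contralateral and 107 to 146 reads in ipsilateral libraries. Without the setting, reads of C1ql3 and of these partners cannot be told apart with certainty. It is also not known whether reads in the shared bases were counted. The counts of Gm37811 and Gm37824 therefore cannot show how much the overlap matters. The RPKM of C1ql3, divided by all 2535 bases, carries the same limit. No gene in the table shared exonic bases with any of the other 5 listed genes.

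**Figure D2:**
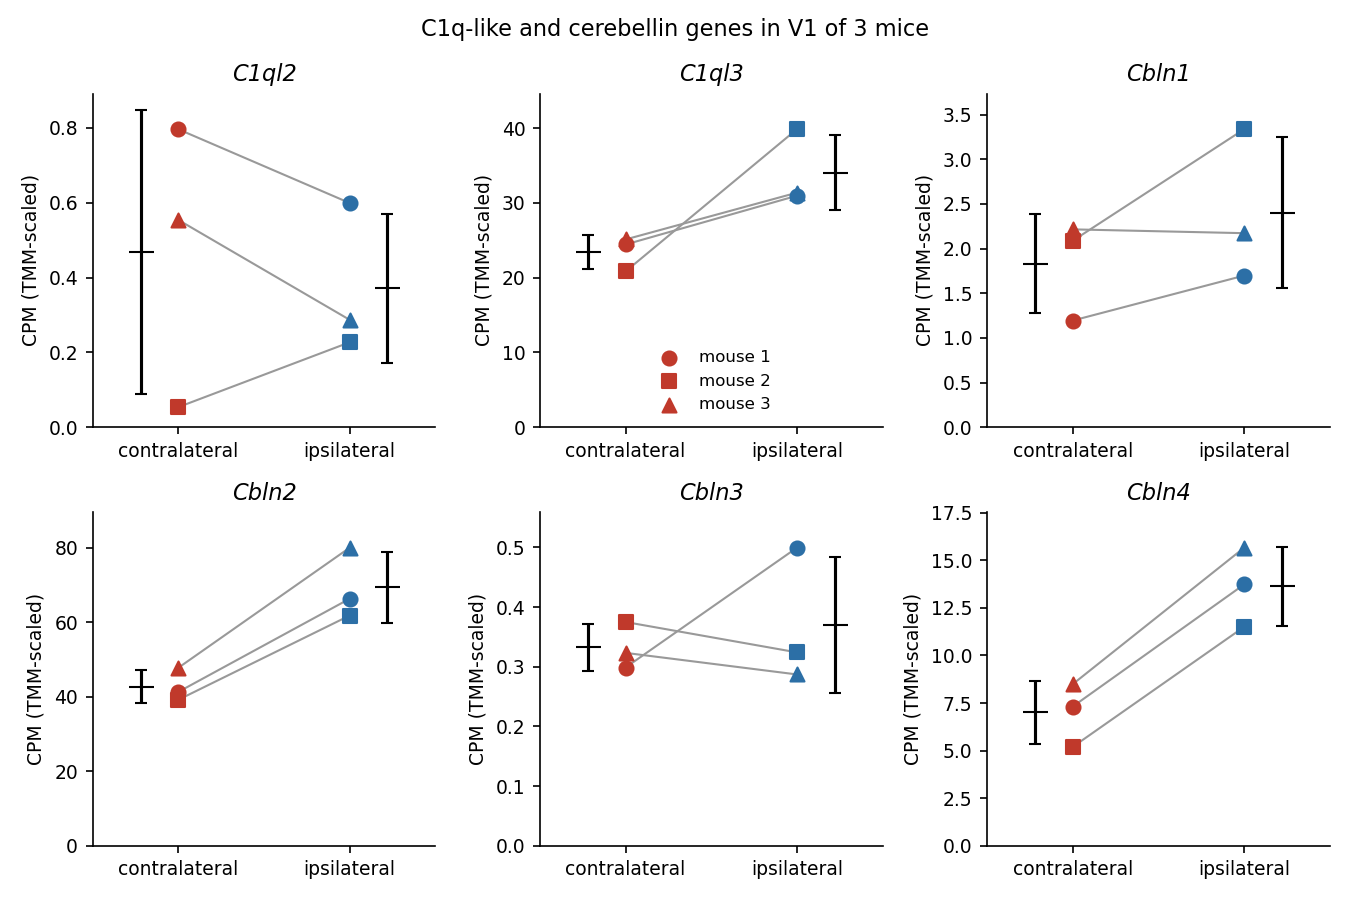
Level in CPM of each of the 6 genes, contralateral V1 (red, left) and ipsilateral V1 (blue, right), with lines joining the hemispheres of a mouse and bars for mean and SD over 3 libraries. For C1ql3, Cbln2 and Cbln4 every contralateral point lies below every ipsilateral point, while the points of C1ql2, Cbln1 and Cbln3 overlap.

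Cbln1 (ENSMUSG00000031654, chromosome 8, 87468405 to 87472609, minus strand), the cerebellin that holds parallel fibre synapses to Purkinje cells in the cerebellum, was scarce in V1. It had 1.19, 2.09 and 2.22 CPM in contralateral V1 of mice 1 to 3, against 1.70, 3.34 and 2.17 CPM in ipsilateral V1. The groups overlapped, with mouse 3 about level. The log2 fold change was -0.40 (SE 0.33). The contralateral level was 70.4%, 62.6% and 102% of the ipsilateral one in mice 1, 2 and 3, from 24 to 48 contralateral and 34 to 103 ipsilateral reads, and counting error alone spans equality in mice 1 and 3.

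C1ql2 (ENSMUSG00000036907, chromosome 1, 120340582 to 120343174, plus strand), the mossy fibre organiser of the dentate gyrus, was at the edge of detection. It had 16, 1 and 12 reads in contralateral libraries of mice 1 to 3, against 12, 7 and 7 reads in ipsilateral ones. Over the hemisphere this was 0.480 CPM (95% Poisson interval 0.321 to 0.689, counting error only) in contralateral and 0.345 CPM (0.226 to 0.506) in ipsilateral V1. These intervals overlapped, but they sum the reads of the libraries and leave out the spread between animals. Single libraries had 0.0536 to 0.796 CPM in contralateral and 0.227 to 0.599 CPM in ipsilateral V1. The log2 fold change was 0.41 (SE 0.68) and turned to -0.18 without contralateral library 1. Of 5 dentate gyrus markers, 4 were tested, 0 passed with or without the block in edgeR or DESeq2, and 0 had an unadjusted p under 0.05 in edgeR. Their summed level was 33.3 to 41.7 CPM in contralateral and 39.6 to 50.2 CPM in ipsilateral libraries. Most of it was Prox1, at a mean of 24.0 CPM in contralateral and 27.9 CPM in ipsilateral V1. Dsp averaged only 0.0664 and 0.211 CPM, in that order. The 3 markers of hippocampal field CA1 likewise gave 0 calls, and summed to 38.2 to 50.3 CPM in contralateral and 31.8 to 57.8 CPM in ipsilateral libraries. Most of that sum was Wfs1, at a mean of 39.5 CPM in contralateral and 43.1 CPM in ipsilateral V1. Over all genes, 0.127% passed in edgeR without the block and 0.894% with it, so 0 of these few markers is near that share. Whether hippocampal tissue was in the samples was not tested.

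Cbln3 (ENSMUSG00000040380, chromosome 14, 55878920 to 55884256, minus strand), which in cerebellar granule cells is secreted together with Cbln1, had 6, 7 and 7 reads in contralateral and 10, 10 and 7 reads in ipsilateral libraries of mice 1 to 3. That is 0.331 CPM (0.202 to 0.511) in contralateral and 0.359 CPM (0.236 to 0.522) in ipsilateral V1. Cbln3 did not pass the filter on low counts and has no fitted value in the main comparison. Of 3 cerebellar granule cell markers 1 was tested and did not pass, and their summed level was 0.846 to 1.43 CPM in contralateral and 0.713 to 1.25 CPM in ipsilateral libraries.

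Of the 6 genes, 5 passed that filter. In edgeR without the mouse term 0 of these 5 were past the threshold, against 0.127% of 20473 genes tested, with 3 lower at an unadjusted p under 0.05, against 2.87% of all genes. With the mouse as a block 3 of 5 were past it, Cbln2, Cbln4 and C1ql3, all lower in contralateral V1, against 0.698% of all genes that were lower and past it. DESeq2 placed Cbln2 and Cbln4 past it as lower without the block, against 0.396% of all genes, and 3 of 5 with it, against 0.923%. In edgeR without the low-count filter 2 of 6 were past it as lower, against 0.259% of 34788 genes. Hemispheres did not overlap, with contralateral V1 lower, for 3 of 5 genes, against 6.29% of all genes, and the same 3 were lower in contralateral V1 in all 3 mice, against 17.3%. The median log2 fold change of the 5 was -0.54, against 0.03 over all genes tested. As the list was drawn up with this contrast known, nothing is read from these counts.

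**Figure D3:**
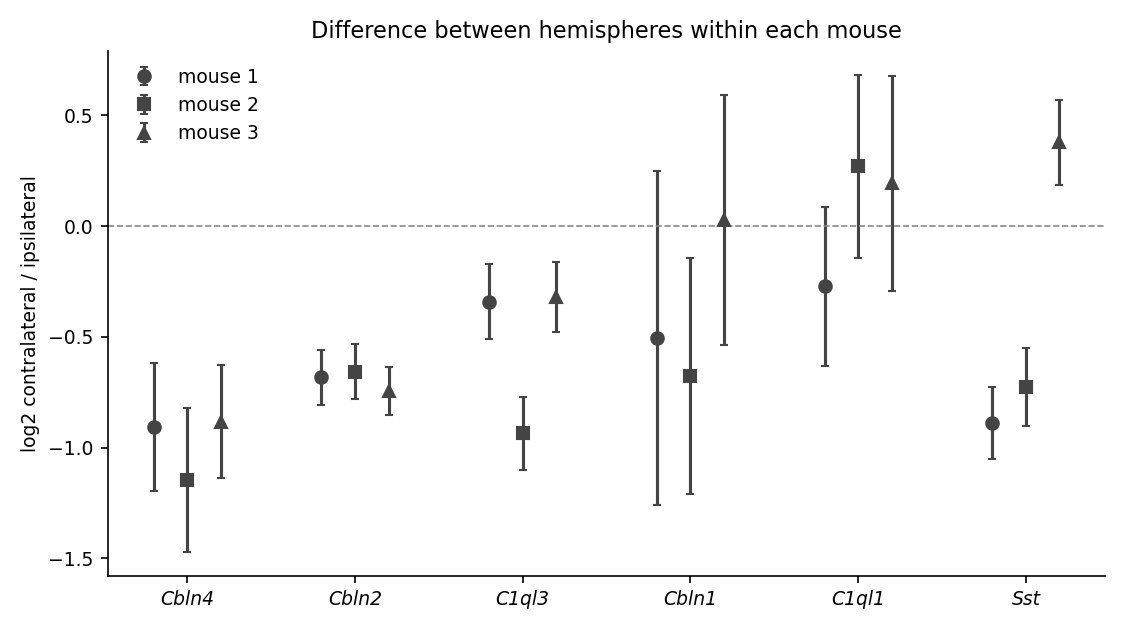
Log2 ratio of contralateral to ipsilateral level within each mouse (circle mouse 1, square mouse 2, triangle mouse 3) with 95% counting intervals, for 4 listed genes, C1ql1 and the interneuron peptide Sst. Cbln4 and Cbln2 lie below 0 with intervals clear of 0 in all 3 mice, C1ql3 does so with a lower value in mouse 2, and C1ql1 and Sst lie on both sides of 0.

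Across the 6 libraries, log2 levels of Cbln2 and Cbln4 had a Pearson correlation of 0.971. C1ql3 correlated with Cbln4 at 0.808 and with Cbln2 at 0.786, and Cbln1 correlated with these 3 genes at 0.249 to 0.564. These points share the difference between hemispheres, the animals and the libraries, and the values are a description. By the same measure, among 17472 other genes with a mean of at least 1 CPM, C1ql3 was most like Gpc4 (0.995), Synrg (0.987) and Fdft1 (0.986). Cbln2 was most like Tmem38b, Ell2 and Tfrc (0.997, 0.990 and 0.990), and Cbln4 most like Usp31, Dclre1a and Tmed10 (0.997, 0.993 and 0.993). Cbln1 was most like Zeb2, Cdh9 and Smarcc1 (0.991, 0.989 and 0.982). Each is among the highest of 17472 values over only 6 libraries.

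The libraries also differ in mt-Rnr1, the mitochondrial 12S ribosomal RNA, which was at 14.5 to 35.9 CPM in contralateral 1, ipsilateral 1 and ipsilateral 3 and at 2243 to 5801 CPM in the remaining 3. Within the low libraries the log2 fold change was -1.02 for Cbln4, -0.84 for Cbln2, -0.36 for C1ql3 and -0.71 for Cbln1. Within the high libraries it was -0.74 for Cbln4, -0.51 for Cbln2, -0.80 for C1ql3 and -0.63 for Cbln1. In each set 1 hemisphere is represented by only 1 library, whose spread is taken from the other 2. The libraries of mouse 3 fall in different sets, contralateral in the high and ipsilateral in the low one. Its within-mouse ratios therefore also span this difference. Reads assigned to genes ranged between 17849253 and 21818822 in contralateral libraries and between 20749614 and 32213500 in ipsilateral ones. The activity-regulated genes Fos (log2 fold change -2.02, SE 0.21, adjusted p = 0.00263, edgeR) and Arc (-1.38, SE 0.22, adjusted p = 0.0335, edgeR) were lower in contralateral than in ipsilateral V1.

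Relatives that share the C1q domain lay near 0. C1ql1 (chromosome 11, 102939264 to 102946688, minus strand) had 5.62, 4.34 and 3.14 CPM in contralateral V1 of mice 1 to 3, against 6.79, 3.60 and 2.75 CPM in ipsilateral V1. The groups overlapped, and mouse 1 was highest on both sides. Its log2 fold change was 0.01 (SE 0.33, adjusted p = 0.998, edgeR). C1ql4 had 0 reads in every library, which allows up to 0.161 CPM in contralateral library 2 and 0.0972 CPM in ipsilateral library 2, the shallowest and the deepest library. C1qa, C1qb and C1qc, the microglial subunits of complement C1q, had log2 fold changes of 0.13, 0.17 and 0.14. Of 5 relatives tested, 0 passed in edgeR or DESeq2 with or without the block, and 0 had an unadjusted p under 0.05. As 0.127% of all genes passed in edgeR without the block and 0.894% with it, 0 of 5 is near that share.

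The known receptors and partners were tested next, on a list chosen by function with earlier results of these data known. Of 6 genes for C1q-like partners, 0 passed with or without the block in edgeR or DESeq2 and 0 had an unadjusted p under 0.05 in edgeR, with a median log2 fold change of 0.06. Adgrb3, the BAI3 receptor, averaged 252 ± 19.5 CPM in contralateral and 238 ± 11.2 CPM in ipsilateral V1, a log2 fold change of 0.08 (SE 0.12). The kainate receptor genes Grik2 and Grik4 had log2 fold changes of 0.04 (SE 0.11) and 0.18 (SE 0.15). Of 7 genes for cerebellin partners, 0 passed with or without the block in edgeR or DESeq2 and 0 had an unadjusted p under 0.05 in edgeR, with a median of -0.04. The delta receptor gene Grid1 stood at 0.04 (SE 0.14). The netrin receptor genes Dcc (0.11, SE 0.13) and Neo1 (-0.10, SE 0.11) lay on opposite sides of 0. Over all genes, 0.127% passed in edgeR without the block and 0.894% with it. On lists this short 0 calls are near that share and do not show that the partners were unchanged.

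Nrxn3, whose neurexin binds members of both families, had 312 ± 15.2 CPM in contralateral and 359 ± 18.9 CPM in ipsilateral V1. Its libraries did not overlap between hemispheres, and it was lower in contralateral V1 in 3 of 3 mice. The same held for Neo1. Over all genes tested, 6.29% were lower without overlap and 17.3% were lower in all 3 mice. The log2 fold change of Nrxn3 was -0.20 (SE 0.12, adjusted p = 0.826 without and 0.433 with the block, edgeR), so it did not pass. Nrxn2 (-0.04, SE 0.22) lay closer to 0. Whether the listed genes differ from their receptors in response was not tested.

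Among 13 genes of other secreted synaptic organisers and their receptors, 1 passed as lower in contralateral V1 in edgeR without the block and 2 with it. The shares of all genes that passed as lower were 0.127% and 0.698%. The list median without the block was -0.10, with 10 of the 13 below 0. Nptx2, a secreted pentraxin that clusters AMPA receptors, was lower in contralateral V1, with a log2 fold change of -1.67 (SE 0.24, adjusted p = 0.0180, edgeR). Lgi2, of the secreted LGI family that binds ADAM22 and ADAM23, averaged 87.4 ± 12.8 CPM in contralateral and 117 ± 3.61 CPM in ipsilateral V1 and was lower in 3 of 3 mice. Its log2 fold change was -0.42 (SE 0.13, adjusted p = 0.612) without the block and -0.43 (SE 0.10, adjusted p = 0.0485) with it, both in edgeR. Gpc4, a glypican secreted by astrocytes and the gene most like C1ql3 above, averaged 6.77 ± 0.390 CPM in contralateral and 9.24 ± 1.14 CPM in ipsilateral V1, with a log2 fold change of -0.45 (SE 0.18, adjusted p = 0.762, edgeR). Nptx1 (0.21), Sparcl1 (0.22) and Lgi3 (0.08) lay above 0 and did not pass.

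**Figure D4:**
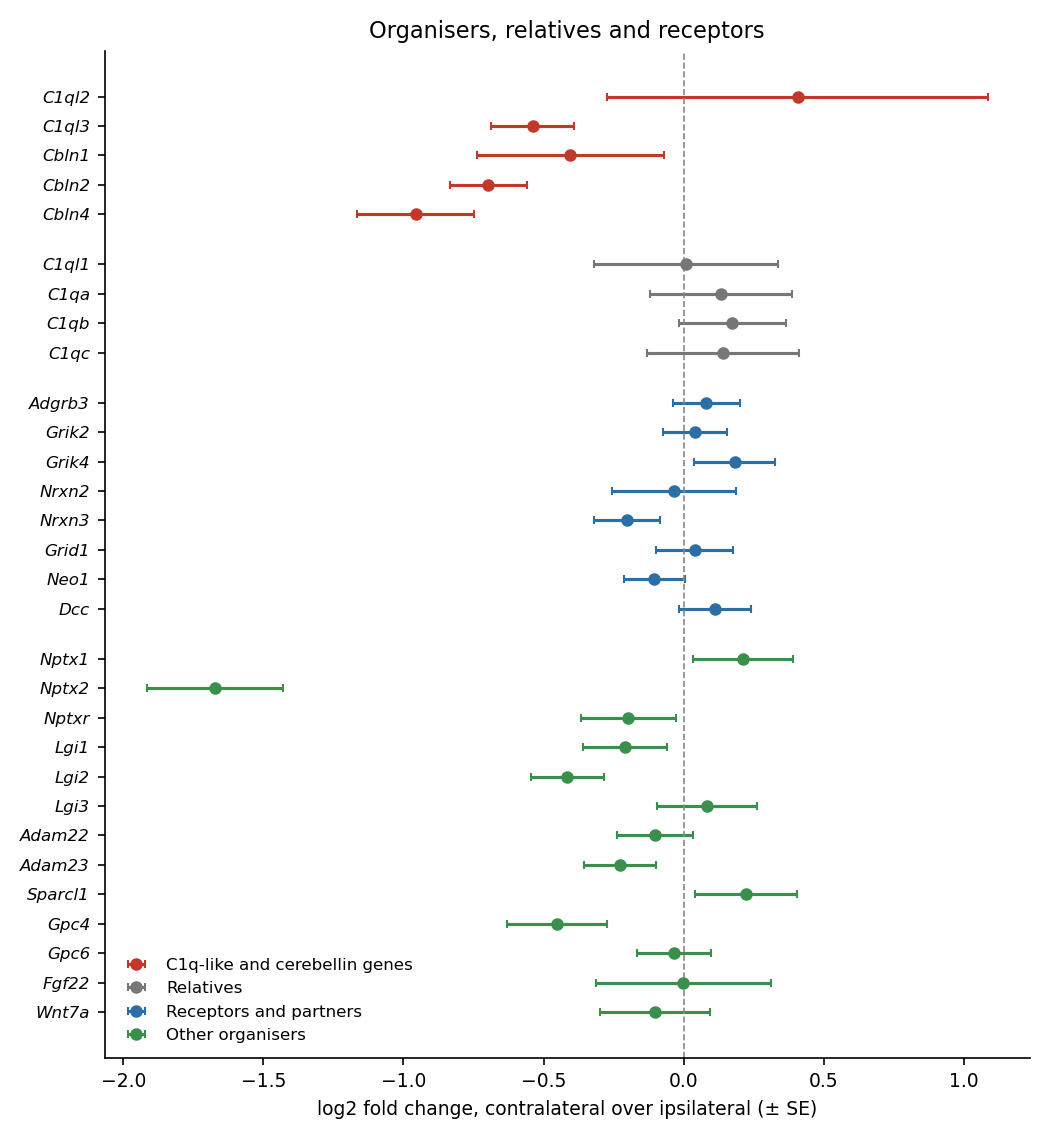
Log2 fold change of contralateral over ipsilateral V1 with its SE, from the comparison without the mouse term, for 5 listed genes (red), their relatives (grey), some of their receptors and partners (blue) and other organisers (green). Cbln4, Cbln2 and C1ql3 lie between -0.96 and -0.54, Cbln1 at -0.40 (SE 0.33) and C1ql2 at 0.41 (SE 0.68). The receptors and partners drawn lie between -0.20 and 0.18. The listed genes were chosen with this contrast known.

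Cell markers give the makeup of the tissue beside these values. The 7 cortical excitatory neuron markers were all present, with a summed level of 4957 to 5499 CPM in contralateral and 4181 to 5617 CPM in ipsilateral libraries. None passed without the block in edgeR or DESeq2, with 1 at an unadjusted p under 0.05 in edgeR. With the block 1 passed as lower in contralateral V1 in both tools, the deep-layer factor Tle4 (-0.41, SE 0.09, adjusted p = 0.0393, edgeR). Of 4 thalamic markers tested, 0 passed with or without the block in edgeR or DESeq2. In edgeR 0 had an unadjusted p under 0.05 without the block and 1 with it, Lef1 (0.49, SE 0.16, adjusted p = 0.186). Thalamic markers summed to 65.8 to 69.3 CPM in contralateral and 61.3 to 64.9 CPM in ipsilateral libraries, so every contralateral library lay above every ipsilateral one, and Gbx2 was at 0. The largest part was Slc17a6, at a mean of 34.0 CPM in contralateral and 33.4 CPM in ipsilateral V1. Whether thalamic tissue was in the samples was not tested. Microglial markers summed to 202 to 274 CPM in contralateral and 184 to 242 CPM in ipsilateral libraries, and astrocyte markers to 1043 to 1353 CPM in contralateral and 1041 to 1192 CPM in ipsilateral ones. Oligodendrocyte markers summed to 2783 to 4696 CPM in contralateral and 3912 to 4768 CPM in ipsilateral libraries. None of the 12 markers of these glia passed with or without the block in edgeR or DESeq2. In edgeR 0 had an unadjusted p under 0.05 without the block and 2 with it, both of oligodendrocytes and both with a negative log2 fold change. With 0.127% of all genes passing in edgeR without the block and 0.894% with it, 0 calls on such short marker lists are near that share. The part of these cell types in the levels of the listed genes was not tested.

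No circular RNA of these genes was found: 0 of 1488 circular RNAs in the deposited table had a listed gene as host or overlapped its locus.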

How the data were processed

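A SMARTer Stranded total RNA kit was used for the libraries, per the labels' protocols. The authors deposited raw read counts per Ensembl gene in a featureCounts layout with exonic lengths, per the file headers, and raw back-splice counts per circular RNA. Per the submitters' processing notes, the build was GRCm38 and the tools included HISAT2, featureCounts, limma and DESeq2. Their versions and roles, and whether counting used strand, were not stated. Normalized circular RNA files were not used. Symbols came from GENCODE M21 (52489 of 52636 IDs matched).

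Counts were tested over 20473 genes with edgeR 4.0.16 in R 4.3.3 (quasi-likelihood F test after TMM normalization, genes kept by filterByExpr at a count of 10 and a total of 15, Benjamini-Hochberg threshold 0.05), and with DESeq2 1.42.0 as an alternative. The procedure was tested on simulated data. Changes put in there were larger than those of the listed genes, without a mouse effect, so effects of the listed size were not covered. SE is the size of the log2 fold change divided by the root of the F statistic. CPM and RPKM use TMM-scaled library sizes, and likeness used log2(CPM + 0.01). Coding sequences were aligned with MAFFT through their translation. Ratios within mice were computed from at least 20 reads per library. Intervals and the limit for 0 reads (3 reads) cover counting error only.

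Hemispheres of a mouse are paired by the labels. The correlation of library deviations from group means was, for mice 1 to 3, 0.43, 0.08 and 0.17, and -0.29 to 0.18 between different mice. The listed genes and all other lists were chosen with earlier results of these data known. Named were the listed genes, C1ql1 and C1ql4, genes of the partner lists that passed in either fit or had the smallest p, the 3 genes most like each listed gene, and Fos, Arc and mt-Rnr1; other named partners, markers and predicted genes were added after their values were seen.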

Additional observations from a re-analysis of the deposited data

How the results depend on the processing

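Across 20 alternatives, 13 of them planned, the log2 fold change kept its sign for C1ql3 (-0.80 to -0.33), Cbln1 (-0.71 to -0.09), Cbln2 (-0.84 to -0.51) and Cbln4 (-1.12 to -0.74). C1ql2 ranged from -0.18 to 0.90 when a library was left out. It turned to -0.18 without contralateral library 1 and to -0.19 with the mouse as a block and without mouse 3. Cbln3 could be fitted only without the low-count filter (-0.15, SE 0.65). Of the listed genes, 0 were past the threshold in edgeR without the block, 3 with the block, 2 in DESeq2, 2 without the filter and 3 with the block in DESeq2. With the block and without both libraries of mouse 1, 2 or 3, 3, 2 and 3 were past it, C1ql3 being lost without mouse 2. The block also changed the calls of Lgi2, Nos1, Tle4, Fdft1 and Tfrc, and of no other gene named. Over all genes, 26 passed, 183 with the block, 89 in DESeq2, 109 without the filter and 215 with the block in DESeq2. Leaving out a library gave 0 to 35 genes and leaving out a mouse 0 to 39, or 250, 174 and 269 with the block and without mouse 1, 2 or 3. Without contralateral library 2, and without mouse 2, 0 genes passed. Of the partner lists, 1 gene passed, 2 with the block in edgeR or DESeq2, and 0 to 2 when a library or mouse was left out. C1ql2 and Cbln3, at 1 to 16 reads a library, are limited by depth, and C1ql2 also by its spread between libraries. The alternatives without a mouse, and the block in DESeq2, were chosen after seeing the data. The cause of these changes was not tested.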
